A study of Mus musculus with 4 samples.

Results

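The genes described here build, duplicate and organize centrioles. They were chosen by symbol, as 39 genes of centriole duplication, deuterosome amplification, basal bodies and the pericentriolar material, and 38 of them had a row among the 22556 genes of the data set. The exception was Cep89, which had no row under that symbol and was skipped. A row under Ccdc123, an older symbol of Cep89 in RefSeq, stood outside the set, at 15.1 and 16.5 FPKM in Control and 14.1 and 14.7 FPKM in Shh-Stk11. FPKM scales the reads of a gene by transcript length and by library size.

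Lungs were taken from mouse embryos at E16.5, with 2 libraries per genotype. Control lungs were Shh-Cre; Stk11F/+ and Shh-Stk11 lungs were Shh-Cre; Stk11F/F, so that all 4 libraries carried the Cre driver and at least a single floxed Stk11 allele. Shh-Cre recombines in the endoderm that gives rise to the lung epithelium, and RNA was extracted from the organ with its mesenchyme, vessels and blood, which keep Stk11, a kinase and tumor suppressor. The labels gave the strain as C57BL/6, whereas the methods described mixed backgrounds and independent biological replicates without stating how many embryos made up a library.

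A centriole is a short barrel of microtubules that forms the core of the centrosome and, once docked at the cell surface, becomes the basal body of a cilium. Cycling cells add a single new centriole beside each old centriole, by a pathway that starts with the kinase PLK4. Airway multiciliated cells stop dividing and make basal bodies in large numbers, partly around deuterosomes, rings of protein that carry growing centrioles and are built by DEUP1, whose gene is listed here under its older symbol Ccdc67. The comparison addressed whether loss of epithelial Stk11 altered the transcripts of this machinery in whole E16.5 lung.

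The sequences before the start of the deuterosome genes and of Cetn4 are shown, since these 3 genes had the lowest fold changes of the set. Each run holds the 250 bases before an annotated start in RefSeq (GRCm38.p6), 5′ to 3′ along the gene, with motif matches in capitals.

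Ccdc67 (chr9:15627847-15628096, minus strand): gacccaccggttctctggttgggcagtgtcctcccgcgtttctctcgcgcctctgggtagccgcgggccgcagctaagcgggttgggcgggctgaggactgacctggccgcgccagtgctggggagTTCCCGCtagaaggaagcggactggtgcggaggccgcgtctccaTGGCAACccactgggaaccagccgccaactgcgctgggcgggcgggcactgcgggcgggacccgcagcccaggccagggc

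Ccdc78 (chr17:25786330-25786579, plus strand): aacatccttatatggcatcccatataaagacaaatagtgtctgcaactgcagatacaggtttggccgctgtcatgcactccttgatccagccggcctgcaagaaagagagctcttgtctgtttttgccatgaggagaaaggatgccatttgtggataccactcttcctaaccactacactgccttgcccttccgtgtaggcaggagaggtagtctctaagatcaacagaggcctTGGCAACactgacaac

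Cetn4 (chr3:37312447-37312696, minus strand): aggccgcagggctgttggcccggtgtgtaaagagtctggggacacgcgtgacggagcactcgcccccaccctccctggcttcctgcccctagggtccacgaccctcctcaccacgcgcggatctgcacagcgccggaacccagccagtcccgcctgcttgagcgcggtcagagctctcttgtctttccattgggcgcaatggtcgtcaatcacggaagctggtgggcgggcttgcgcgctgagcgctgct

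The search covered both strands for 5 motifs of 7 bases. For E2F-type binding, the first motif searched was TTGGCGC. The second motif of this type was spelled TTCCCGC. The third was the related run of letters TTCGCGC. For RFX factors the motif searched was GTTGCCA, and for forkhead factors it was TGTTTAC. In the Ccdc67 window TTCCCGC lay 124 to 118 bases before the start, and GTTGCCA lay on the opposite strand 80 to 74 bases before it. The second annotated Ccdc67 window held no match. The Ccdc78 window held GTTGCCA on the opposite strand, 16 to 10 bases before the start, and the Cetn4 window held none of the 5 motifs. No capitals of different motifs overlapped in the windows shown. Among the 31 members with a window, only Ccdc67 and Ccdc78 held GTTGCCA (6.45%), against 4.19% of all 27025 genes with a window. TTCCCGC was in 6 members, Ccdc67, Cep152, Cep57, Cep70, Pcnt and Plk4 (19.4%, against 4.38% of all genes). Any of the E2F-type motifs was in 8 members (25.8%, against 7.68%), the other two being Cep63 with TTCGCGC and Nin with TTGGCGC. The forkhead motif was in 0 members and in 3.54% of all genes. These shares are descriptions of the letters in the windows. A gene counted if any of its windows matched, and the 31 members had 38 windows. The background was every gene with a window, whether or not it was expressed in lung, and was not matched to the members in GC content.

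Both deuterosome genes fell in Shh-Stk11 lungs, and no other member passed the test. All 38 members were tested, and 2 (5.26%) were called by limma at an adjusted p under 0.05, beside 2.27% of all 13770 genes tested. Both calls were lower in Shh-Stk11, where 1.29% of all genes were called, and 0 members were called higher, where 0.98% of all genes were called. At an unadjusted p under 0.05, 4 members were lower and 6 were higher (10.5% and 15.8%, beside 7.18% and 8.04% of all genes). The values of the genotypes did not overlap for 18 members (47.4%), close to the 46.8% of all genes tested, with 10 lower (27.6% of all genes) and 8 higher (19.2% of all genes). The median log2 fold change of the 38 members was 0.01, against -0.05 for all genes. Of the members 19 lay on each side of 0, whereas of all genes tested 8033 lay below 0 and 5737 above it. Without Ccdc67 and Ccdc78 the other 36 members ranged from -0.61 (Cetn4) to 0.76 (Pcm1), with a median of 0.03. Their lowest 95% confidence bound was -0.96 (Poc1a), whereas the intervals of the deuterosome genes ended at -0.99 and -1.18.

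**Figure D1:**
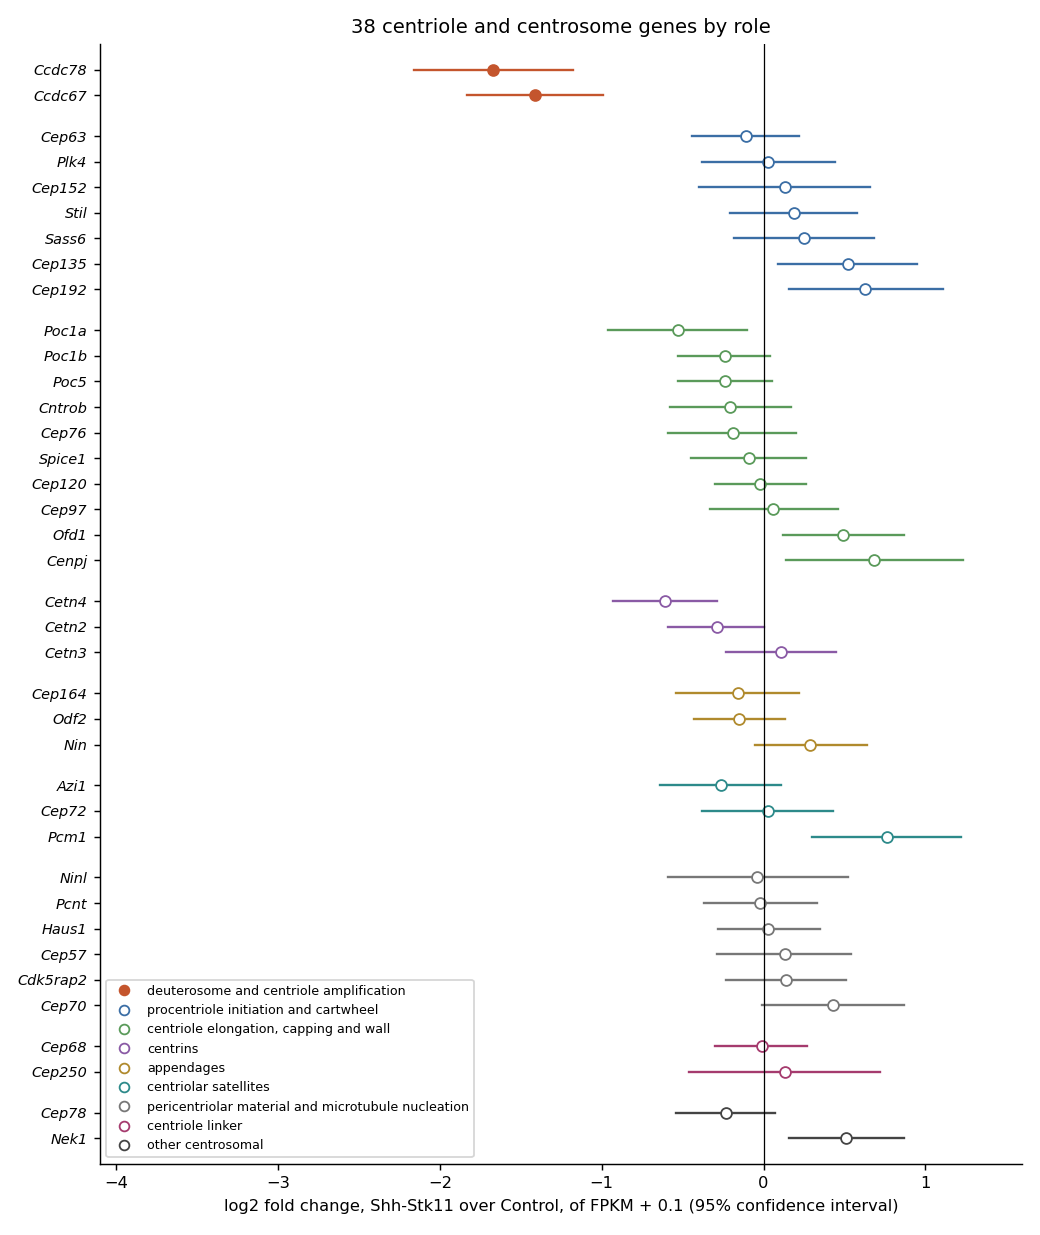
Log2 fold change of FPKM + 0.1, Shh-Stk11 over Control, for the 38 members in groups by role (points, limma estimates from 2 against 2 libraries; lines, 95% confidence intervals; filled, adjusted p under 0.05). Only Ccdc67, at -1.41, and Ccdc78, at -1.67, are filled, and the other 36 lie between -0.61 and 0.76.

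Ccdc67, which encodes the DEUP1 scaffold of the deuterosome, was at 6.92 and 8.89 FPKM in the Control libraries and at 3.02 and 2.76 FPKM in the Shh-Stk11 libraries. Both Shh-Stk11 values lay under the lower Control value. The means were 7.91 ± 1.39 FPKM and 2.89 ± 0.183 FPKM (SD, n = 2), so that 36.6% of the Control level remained. Its log2 fold change was -1.41 (SE 0.175, 95% interval -1.83 to -0.99, limma adjusted p = 0.016). The values corresponded to about 740 and 789 reads in Control and 261 and 258 reads in Shh-Stk11, so that counting error was small beside the difference.

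Ccdc78, which encodes a protein of the deuterosome that takes part in centriole amplification, was at 3.05 and 3.20 FPKM in Control and at 0.852 and 0.978 FPKM in Shh-Stk11. This was the least abundant transcript of the set, with a mean of 2.02 FPKM over the 4 libraries, and its replicates lay close together in both genotypes. The group means were 3.13 ± 0.103 FPKM and 0.915 ± 0.0892 FPKM (SD, n = 2), so that 29.3% of the Control level remained. Its log2 fold change was -1.67 (SE 0.203, 95% interval -2.16 to -1.18, limma adjusted p = 0.0151), from about 168 and 146 reads in Control and 38 and 47 reads in Shh-Stk11. In GENCODE M21, 223 of its 2118 exon bases (10.5%) overlap exons of Fam173a on the opposite strand, and reads of the pair cannot be told apart without strand. Fam173a was at 44.0 and 52.8 FPKM in Control and 36.6 and 47.2 FPKM in Shh-Stk11, where the genotypes overlapped.

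Both calls needed both Control libraries. Without Control 1 the limma adjusted p was 0.0882 for Ccdc67 and 0.12 for Ccdc78, and without Control 2 it was 0.145 and 0.134. Without Shh-Stk11 2 it was 0.061 for Ccdc67 and 0.0318 for Ccdc78, and with no filter on low genes it was 0.26 and 0.223 (range over all 16 alternatives 0.00462 to 0.26 for Ccdc67, and over 15 alternatives 0.00417 to 0.223 for Ccdc78). The log2 fold change stayed between -1.59 and -1.19 for Ccdc67 and between -1.76 and -1.11 for Ccdc78 in these alternatives. In bulk lung, fewer cells of a type and less RNA per cell cannot be told apart. Of 6 markers of ciliated cells, 5 were called lower, with a summed level of 220 and 237 FPKM in Control and 82.4 and 92.5 FPKM in Shh-Stk11. None of these markers was at 0, and the part of ciliated cell number in the deuterosome genes was not tested.

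**Figure D2:**
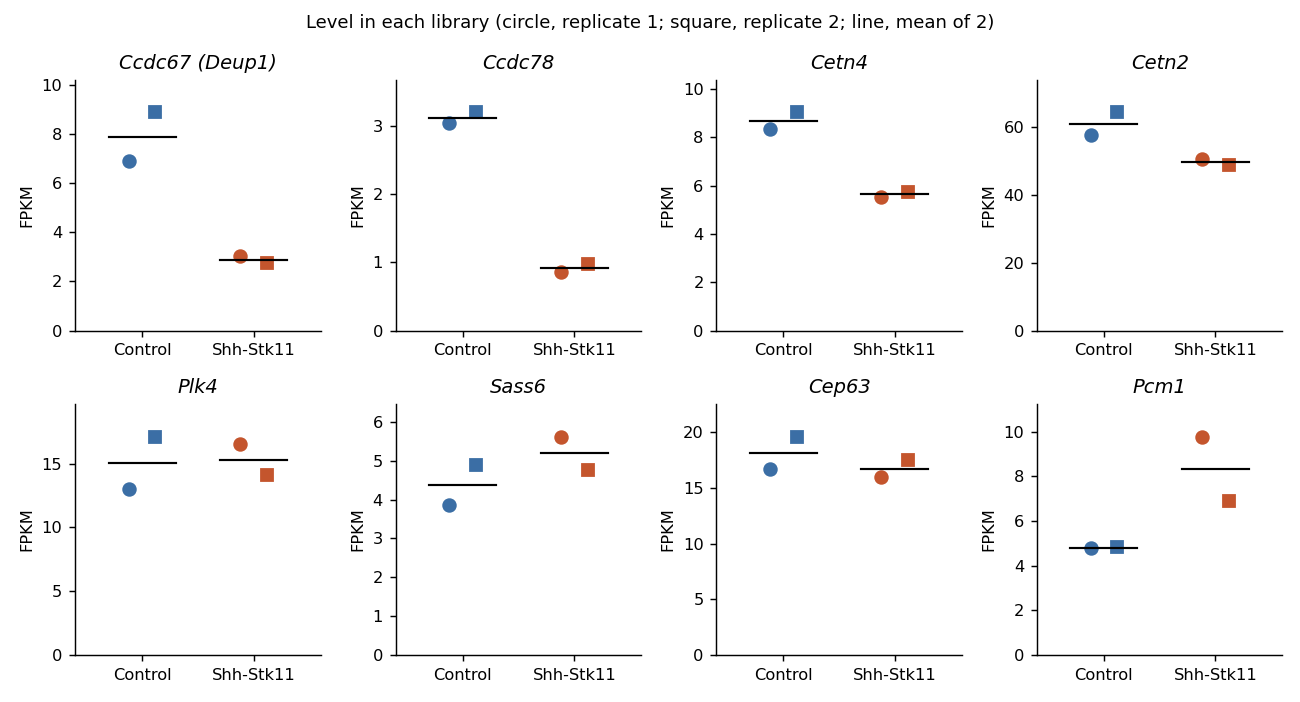
FPKM of 8 members in each library, on axes that start at 0 (blue, Control; orange, Shh-Stk11; line, mean of 2 libraries). For Ccdc67, Ccdc78 and Cetn4 both Shh-Stk11 points sit below both Control points, for Plk4, Sass6 and Cep63 the genotypes overlap, and Pcm1 is higher in both Shh-Stk11 libraries with 9.78 FPKM in Shh-Stk11 1.

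Genes that start a new centriole, in dividing and in multiciliated cells alike, came next. Their values pool all cells of the lung, and their level in multiciliated cells alone was not measured. Among 7 members of procentriole initiation and the cartwheel, 0 passed the test, 2 were higher at an unadjusted p under 0.05, and the median log2 fold change was 0.19. Plk4, the kinase that licenses duplication, was at 13 and 17.1 FPKM in Control and at 16.5 and 14.1 FPKM in Shh-Stk11. The Shh-Stk11 values lay inside the Control range, and the log2 fold change was 0.03 (95% interval -0.38 to 0.44, limma adjusted p = 0.953). Cep63, the paralog of Ccdc67 that recruits CEP152 to the parental centriole, was at 16.7 and 19.6 FPKM in Control and 16.0 and 17.5 FPKM in Shh-Stk11. Its genotypes overlapped and its log2 fold change was -0.11 (95% interval -0.44 to 0.22, limma adjusted p = 0.752). The ratio of Ccdc67 to Cep63 within a library was 0.416 and 0.454 in Control and 0.189 and 0.158 in Shh-Stk11. Of the Cep63 exon bases, 2.49% overlap Anapc13 on the opposite strand. Anapc13 was at 259 and 356 FPKM in Control and 245 and 278 FPKM in Shh-Stk11, far above Cep63.

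Cep152, which links both scaffolds to PLK4, was at 2.40 and 3.50 FPKM in Control and at 3.35 and 3.02 FPKM in Shh-Stk11, with a log2 fold change of 0.13 (95% interval -0.40 to 0.66). Stil, which binds PLK4 and the cartwheel, was at 6.54 and 7.98 FPKM in Control and 8.98 and 7.54 FPKM in Shh-Stk11. Sass6, the cartwheel hub, was at 3.87 and 4.89 FPKM in Control and 5.62 and 4.77 FPKM in Shh-Stk11. The log2 fold changes were 0.19 for Stil (95% interval -0.21 to 0.58) and 0.25 for Sass6 (95% interval -0.18 to 0.68). After removal of the length and GC trend, Cep152 stood at 0.05, Stil at 0.03 and Sass6 at 0.16. For each of these genes the genotypes overlapped, with limma adjusted p values of 0.825 for Cep152, 0.648 for Stil and 0.576 for Sass6. Of the Sass6 exon bases, 6.36% overlap Trmt13 and 24.5% overlap Gm42893, both on the opposite strand.

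The 2 remaining genes of this role were higher in both Shh-Stk11 libraries without passing the test. Cep192, a centrosome scaffold that recruits PLK4, was at 3.63 and 4.68 FPKM in Control and at 7.34 and 5.66 FPKM in Shh-Stk11. Cep135, which ties the cartwheel to the centriole wall, was at 3.06 and 3.97 FPKM in Control and at 5.22 and 4.87 FPKM in Shh-Stk11. The log2 fold changes were 0.63 (95% interval 0.16 to 1.11, limma adjusted p = 0.186) and 0.52 (95% interval 0.09 to 0.95, limma adjusted p = 0.233). With the trend on transcript length and GC content removed they were 0.36 and 0.34.

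The 3 centrins encode small calcium-binding proteins of the centriole lumen and basal body, and 0 of them passed the test. Cetn4, a centrin known from ciliated cells, was at 8.35 and 9.03 FPKM in Control and at 5.55 and 5.75 FPKM in Shh-Stk11. Both Shh-Stk11 values were below both Control values, yet its log2 fold change of -0.61 (SE 0.133, 95% interval -0.93 to -0.29) had a limma adjusted p of 0.0792, with a range of 0.0567 to 0.329 over 16 alternatives. Cetn2, the centrin of the distal lumen, was at 57.7 and 64.4 FPKM in Control and at 50.7 and 48.8 FPKM in Shh-Stk11, with a log2 fold change of -0.29 (95% interval -0.59 to 0.00, limma adjusted p = 0.337). Cetn3 was the most abundant member, with a mean of 103 FPKM over the 4 libraries. It was at 90.9 and 108 FPKM in Control and at 110 and 104 FPKM in Shh-Stk11, where the genotypes overlapped (log2 fold change 0.11, 95% interval -0.23 to 0.45, limma adjusted p = 0.774). Of the Cetn3 exon bases, 8.67% overlap the antisense gene Gm17259.

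Among 10 members of centriole elongation, capping and the wall, 0 passed the test, with a median log2 fold change of -0.14. At an unadjusted p under 0.05, 1 was lower (Poc1a, a stabilizer of the centriole wall, at -0.53 with a limma adjusted p of 0.226) and 2 were higher (Cenpj and Ofd1). Cenpj, which drives growth of centriolar microtubules, was at 1.70 and 2.24 FPKM in Control and at 3.67 and 2.79 FPKM in Shh-Stk11. It was higher in both Shh-Stk11 libraries, with a log2 fold change of 0.68 (95% interval 0.14 to 1.23, limma adjusted p = 0.212). Cep120, a partner of CENPJ in elongation and the most abundant gene of this role, was at 15.0 and 14.7 FPKM in Control and 14.3 and 14.9 FPKM in Shh-Stk11. All of its values lay within 1 FPKM of each other, and the 95% interval of its log2 fold change ran from -0.30 to 0.26. The log2 fold change of Ofd1, which limits centriole length, was 0.49 (limma adjusted p = 0.187). Poc1b, a relative of Poc1a, and Poc5, of the distal lumen, both stood at -0.24, and their genotypes did not overlap. Of their exon bases, 10% (Poc1b) overlap Galnt4, 20.1% (Poc1b) overlap Gm48768 and 25.7% (Poc5) overlap Ankdd1b. Spice1, Cntrob, Cep97 and Cep76 ranged from -0.21 to 0.06.

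The 3 measured appendage genes, whose products dock the basal body to the membrane or anchor microtubules, had 0 calls and a smallest adjusted p of 0.412. Odf2, of the subdistal appendages, was at 27.8 and 28.6 FPKM in Control and at 26.1 and 24.7 FPKM in Shh-Stk11 (log2 fold change -0.15, limma adjusted p = 0.599). Nin, which anchors microtubules there, was at 6.17 and 6.44 FPKM in Control and at 8.36 and 7.16 FPKM in Shh-Stk11 (log2 fold change 0.29, limma adjusted p = 0.412). The genotypes did not overlap for either gene, and the signs were opposite. With the length and GC trend removed, Nin, a transcript of 9919 bases, stood at 0.04 and Odf2 at -0.12. Cep164, of the distal appendages, stood at -0.16 with overlapping genotypes.

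Pcm1, the scaffold of the centriolar satellites that carry proteins to the centrosome, had the highest fold change of the set. It was at 4.80 and 4.82 FPKM in Control and at 9.78 and 6.89 FPKM in Shh-Stk11. The Control replicates were nearly equal while the Shh-Stk11 replicates were far apart, and the log2 fold change was 0.76 (SE 0.191, 95% interval 0.30 to 1.22, limma adjusted p = 0.112). It did not pass the test in any of 16 alternatives (limma adjusted p 0.0522 to 0.446), and its log2 fold change was 0.41 once the trend on length and GC was taken out. The other satellite genes were Azi1, now named Cep131, at -0.26 and Cep72 at 0.03.

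The pericentriolar material, which nucleates microtubules, was represented by 6 members with 0 calls and a median log2 fold change of 0.08. Cep70, which binds gamma-tubulin, was at 3.42 and 4.59 FPKM in Control and at 5.51 and 5.24 FPKM in Shh-Stk11 (log2 fold change 0.43, limma adjusted p = 0.337). Haus1, of the augmin complex that branches spindle microtubules, was at 24.4 and 26.3 FPKM in Control and at 27.8 and 24.1 FPKM in Shh-Stk11 (log2 fold change 0.03, 95% interval -0.28 to 0.35). Cep70 was higher in both Shh-Stk11 libraries (0.25 after removal of the length and GC trend), whereas the values of Haus1 overlapped. The scaffolds Pcnt and Cdk5rap2 and the genes Cep57 and Ninl overlapped as well, between -0.04 and 0.14. Of the Haus1 exon bases, 1.8% overlap Atp5a1 on the opposite strand. Atp5a1 was at 483 and 526 FPKM in Control and 438 and 492 FPKM in Shh-Stk11, far above Haus1.

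Neither gene of the linker that ties a pair of centrioles together separated the genotypes. Cep68 was at 15.1 and 14.2 FPKM in Control and at 14.7 and 14.3 FPKM in Shh-Stk11, and Cep250 was at 3.99 and 5.47 FPKM in Control and at 6.29 and 4.17 FPKM in Shh-Stk11. The log2 fold changes were -0.01 (95% interval -0.30 to 0.27) and 0.13 (95% interval -0.46 to 0.72). Of the Cep250 exon bases, 11.1% overlap 6430550D23Rik on the opposite strand.

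Nek1, a centrosomal kinase linked to cilia, was at 3.78 and 4.02 FPKM in Control and at 5.86 and 5.34 FPKM in Shh-Stk11 (log2 fold change 0.51, limma adjusted p = 0.159). Cep78, of the mature centriole, was at 9.86 and 10.3 FPKM in Control and at 8.31 and 8.81 FPKM in Shh-Stk11 (log2 fold change -0.23, limma adjusted p = 0.452). Both separated the genotypes, in opposite directions and short of the threshold. After removal of the length and GC trend they stood at 0.26 and -0.14.

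The direction of the members varied with transcript length. In the 19 members with the shorter transcripts (1226 to 4180 bases), which include Ccdc67 and Ccdc78, the median log2 fold change was -0.19, and 9 were lower (47.4%) and 1 higher (5.26%) without overlap. In the 19 with the longer transcripts (4453 to 11847 bases) it was 0.13, with 1 lower (5.26%) and 7 higher (36.8%). All genes tested showed the same order, with a median of -0.09 for 9724 genes under the same length limit and 0.08 for 3910 genes above it. Of the shorter genes 33.7% were lower and 13.2% higher without overlap, and of the longer genes 12.6% were lower and 34.1% higher. By library, the longer members stood at a median of 0.30 from the Control mean on the log2 scale in Shh-Stk11 1 and at 0.01 in Shh-Stk11 2, whereas the shorter members stood at -0.11 in Shh-Stk11 1 and at -0.19 in Shh-Stk11 2. Over all lengths, 14 members (36.8%, against 21.8% of all genes) had their highest value in Shh-Stk11 1. With the length and GC trend removed, the medians of the shorter and longer members were -0.14 and 0.01. Ccdc67 and Ccdc78 then stood at -1.37 and -1.55, with limma adjusted p values of 0.0323 and 0.0252. The part of transcript length in the values of single members was not tested.

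**Figure D3:**
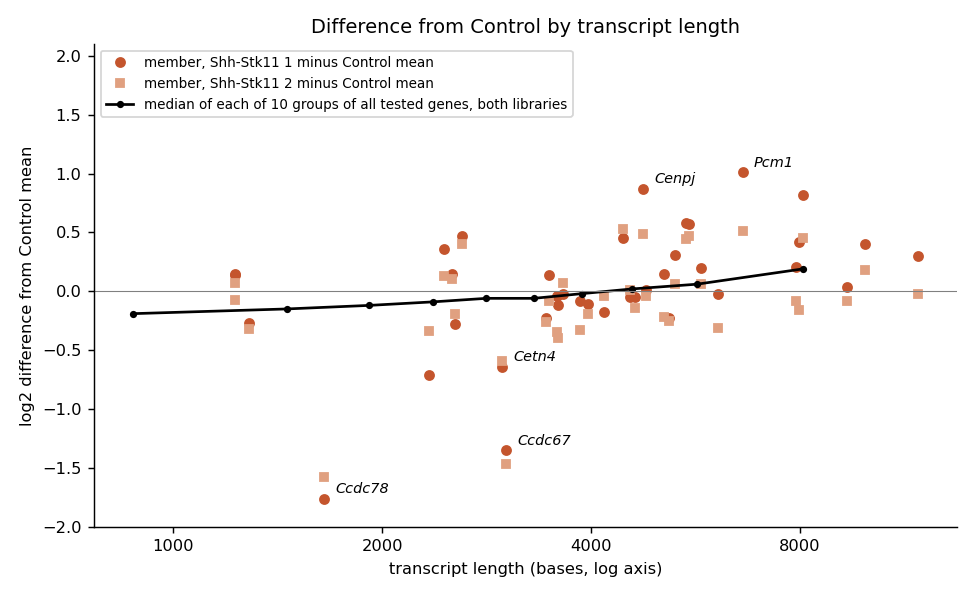
Log2 difference of each Shh-Stk11 library from the Control mean against transcript length on a log axis, for 38 members (circles, Shh-Stk11 1; squares, Shh-Stk11 2), with the median of all genes tested in 10 groups of equal size (line). The line climbs from -0.19 at 876 bases to 0.19 at 8081 bases, Ccdc67 and Ccdc78 lie far below it in both libraries, and Pcm1 lies far above it in Shh-Stk11 1.

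Regulators that act above the deuterosome in multiciliated cells were set beside the members. Of 11 fate regulators tested, 3 were called lower and 0 higher (27.3%), with a median log2 fold change of -0.87. Foxj1, the transcription factor of motile cilium genes, was at 16.1 and 15.4 FPKM in Control and 4.76 and 4.71 FPKM in Shh-Stk11 (log2 fold change -1.71, limma adjusted p = 0.00329). The other two calls were Myb, at -1.37 (limma adjusted p = 0.0249), and Ccno, a cyclin-like gene needed for centriole amplification, at -0.87 (limma adjusted p = 0.0335). Of 16 alternatives, Foxj1 lost the call in 4 (limma adjusted p 0.00053 to 0.0889), Myb in 5 (limma adjusted p 0.00717 to 0.293) and Ccno in 7 (limma adjusted p 0.0166 to 0.197), among them for Ccno the length and GC correction (0.0714). The log2 fold changes stayed between -1.75 and -1.55 for Foxj1, -1.60 and -1.14 for Myb and -0.93 and -0.73 for Ccno. Gm6320, the older symbol of Mcidas, which with E2F factors switches on centriole genes, was at 3.65 and 4.30 FPKM in Control and 2.01 and 1.34 FPKM in Shh-Stk11 (log2 fold change -1.22, limma adjusted p = 0.0586). E2f4, its partner, was at 22.8 and 24.1 FPKM in Control and 22 and 21 FPKM in Shh-Stk11 (log2 fold change -0.13, limma adjusted p = 0.669). Whether these regulators differed from each other in their response was not tested.

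Ratios within a library, given as descriptions, placed the deuterosome genes beside Foxj1, Gm6320 and Epcam. The ratio of Ccdc78 to Foxj1 was 0.189 and 0.208 in Control and 0.179 and 0.208 in Shh-Stk11, and that of Ccdc67 to Foxj1 was 0.429 and 0.577 in Control and 0.634 and 0.586 in Shh-Stk11. The first overlapped between the genotypes, and the second was slightly higher in both Shh-Stk11 libraries. The ratio of Cetn4 to Foxj1 was 0.518 and 0.586 in Control and 1.16 and 1.22 in Shh-Stk11, since Cetn4 was lower by less. Relative to Gm6320, Ccdc78 was at 0.836 and 0.744 in Control and at 0.425 and 0.728 in Shh-Stk11, and Ccdc67 was at 1.90 and 2.07 in Control and at 1.51 and 2.06 in Shh-Stk11. The first was lower in both Shh-Stk11 libraries, mainly in Shh-Stk11 1, and the second was lower in Shh-Stk11 1 and inside the Control range in Shh-Stk11 2. Relative to Epcam, a surface protein of epithelial cells in general that was at 95.5 and 119 FPKM in Control and 119 and 120 FPKM in Shh-Stk11, Ccdc67 was at 0.0725 and 0.0749 in Control and at 0.0255 and 0.0230 in Shh-Stk11.

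**Figure D4:**
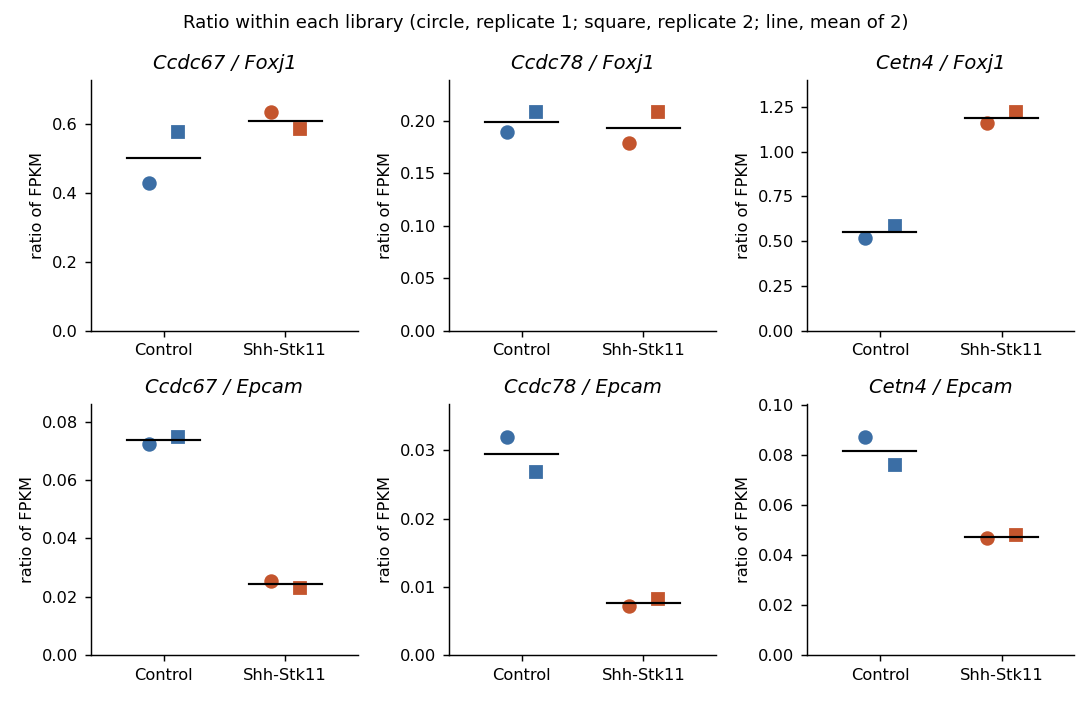
Ratio of FPKM of Ccdc67, Ccdc78 and Cetn4 to Foxj1 (top) and to Epcam (bottom) within each library, on axes that start at 0 (blue, Control; orange, Shh-Stk11; line, mean of 2 libraries). Ccdc78 per Foxj1 lies between 0.179 and 0.208 in all 4 libraries, Cetn4 per Foxj1 is at 1.16 and 1.22 in Shh-Stk11 against 0.518 and 0.586 in Control, and all 3 genes per Epcam are lower in both Shh-Stk11 libraries.

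Further genes of the centrosome, outside the set, were tested in the same fit. Of 62 listed, 50 had a row and 49 were tested, with 0 called by limma, 2 lower and 8 higher at an unadjusted p under 0.05, and a median log2 fold change of 0.10. They ranged from -0.58 (Cby1, of the ciliary base) to 1.10 (Lrrcc1, of the centriole lumen), and the smallest limma adjusted p was 0.0751 (Aspm, of the spindle pole). With robust eBayes 3 of them were called, Aspm and Lrrcc1 higher and Cby1 lower. For the motile axoneme, the moving shaft that grows from the basal body, 21 genes were tested, and 17 were called lower and 0 higher, with a median of -1.62. Genes of mitosis, in which dividing cells hand centrioles to their daughters, had 0 calls among 24 tested, 3 higher at an unadjusted p under 0.05, and a median of -0.03. The 20 calls in these lists and among the fate regulators came down to 3 without Control 1 and to 3 without Control 2.

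Stk11 was at 44.0 and 45.5 FPKM in Control and 29.5 and 26.0 FPKM in Shh-Stk11 (log2 fold change -0.69, limma adjusted p = 0.0499). This value lay just under the threshold, and Stk11 was called in 4 of 16 alternatives (limma adjusted p 0.0236 to 0.26), with both Shh-Stk11 values below both Control values. The library Shh-Stk11 2 had Xist at 0.239 FPKM and Ddx3y at 23.5 FPKM, whereas the other libraries had Xist at 65.1 to 169 FPKM and Ddx3y below 0.03 FPKM, so that sex was not balanced between the genotypes. Of the X-linked members, Cetn2 was at 50.7 and 48.8 FPKM and Ofd1 at 5.13 and 5.43 FPKM in Shh-Stk11 1 and 2. Epithelial markers had 0 calls among 9 genes and a summed level of 841 and 895 FPKM in Control and 1002 and 1081 FPKM in Shh-Stk11. All 9 epithelial markers had a positive log2 fold change (median 0.21, 3 higher at an unadjusted p under 0.05). The markers of most other compartments leaned the opposite way, as did 8033 of all 13770 genes tested. All 11 mesenchymal markers were negative (median -0.21, 0 calls, 4 lower at an unadjusted p under 0.05), with sums of 1424 and 1320 FPKM in Control and 1208 and 1166 FPKM in Shh-Stk11. All 8 endothelial markers were negative (median -0.34, 0 calls, 3 lower at an unadjusted p under 0.05), with sums of 698 and 595 FPKM in Control and 482 and 513 FPKM in Shh-Stk11. The 8 red blood cell markers tested were negative too (median -0.54, Hba-x called lower, 5 lower at an unadjusted p under 0.05). The sums over 10 red blood cell markers were 5697 and 5890 FPKM in Control and 3813 and 4186 FPKM in Shh-Stk11. Muscle markers varied within the genotypes, with sums over 10 markers of 119 and 244 FPKM in Control and 145 and 58.9 FPKM in Shh-Stk11. Shh-Stk11 2 had the lowest sum. Of the muscle markers tested, 6 of 6 were negative (median -0.97, 0 calls, 0 at an unadjusted p under 0.05). The 7 immune markers tested had 0 calls, 1 higher at an unadjusted p under 0.05 (Ptprc), and a median of 0.03. The sums over 9 immune markers were 354 and 325 FPKM in Control and 225 and 408 FPKM in Shh-Stk11. Most of this was Lyz2, at 304 and 268 FPKM in Control and 174 and 352 FPKM in Shh-Stk11. The part of these compartments in the members' values was not tested. Depth estimated from the low values was 30.7 to 37.9 M reads per library, and the median absolute log2 difference between replicates over the members was 0.19 in Control and 0.14 in Shh-Stk11.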

How the data were processed

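Total RNA of E16.5 lungs was sequenced in single-end 50-base reads per the methods of the study. The authors deposited a single table that gives each gene an FPKM value in every library. The submitters' processing notes name TopHat2 2.0.13, Cufflinks 2.2.1 and the builds GRCm38 and mm9 without roles, and scaling between libraries and strand were not given in the sources used here. All 4 value columns matched a library label. Symbols were matched to GENCODE M21 directly (20242 genes) or through RefSeq synonyms (1918 genes), and 396 had no match.

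Values were tested as log2(FPKM + 0.1) with limma 3.58.1 in R 4.3.3, with genotype as the only term and eBayes with a trend (prior degrees of freedom 4.48, residual 2). The test covered genes that averaged 0.5 FPKM or more, with Benjamini-Hochberg adjustment over all of them and a threshold of 0.05. Tests were two-sided. The fold change of low genes is understated on this scale. An exact permutation test of 2 against 2 cannot give a p below 0.333. The procedure was tested on simulated data.

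FPKM values are not counts. Among 1737 low genes, 77.1% of the values were whole multiples of 1 read within 0.05 of a step, from which relative depth and, over 157 genes with a single transcript and 200 bases taken off the length, read numbers were estimated. These cover counting error only. Transcript length was that of the longest coding transcript, which need not be the one the authors quantified. In GENCODE M21, 18 members had an exon that overlaps another gene. Overlaps are given for the 6 members with at least 5% of exon bases shared, and for Cep63 and Haus1.

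The members and lists were chosen with earlier results of these data known. Roles were assigned from general knowledge. All genes of the deuterosome, procentriole and centrin roles, every member past the threshold and, in each other role, the members with the largest fold change and the highest level are given in full. Alternatives covered the pseudocount, the filter, scaling, the variance model, a replicate block, a length and GC correction and the omission of each library. Protein sequences were not used here.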

Additional observations from a re-analysis of the deposited data

How the results depend on the processing

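The number of all genes called was 313, and it was 200 with a filter of 5 FPKM, 1 with no filter, 587 with robust eBayes, 194 with the length and GC trend removed and 38 to 191 without a single library. Members called lower, 2, became 1 with a filter of 5 FPKM (where Ccdc78 was not tested), 0 with no filter, and 0 to 2 without a single library (0 without either Control library, 1 without Shh-Stk11 2, where Ccdc67 was lost). Genes of the other lists called, 20, became 26 with robust eBayes (3 other centrosome genes and 5 fate regulators among them), 13 with a filter of 5 FPKM, 0 with no filter and 3 to 17 without a single library. The median of the members, 0.01, was -0.11 without Control 1, and -0.11 to 0.09 over the omissions. The cause of these shifts was not tested. Members called higher stayed at 0 in all alternatives run.

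Replicates of the genotypes share numbers, but no label ties a number to a litter or batch, and the deviations of same-numbered libraries correlated at -0.114. With a replicate block 13 genes, 0 members and 2 genes of the other lists were called. Crossing the replicate block, an alternative chosen after seeing the data, gave 675 genes, 2 members and 24 genes of the other lists.

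Of 360 values of 23 named members under alternatives, 335 kept their sign and side of the threshold, 9 (all Ccdc67 or Ccdc78) lost the call and 16 changed sign, none of them called. With median-ratio scaling Cep120 was at 0.02 and Cep68 at 0.03. With the length and GC trend removed Plk4 was at -0.11 and Cetn3 at -0.14. Without a single library the lowest and highest values were -0.16 and 0.23 for Plk4, -0.13 and 0.40 for Cep152, -0.02 and 0.23 for Cetn3, -0.07 and 0.14 for Haus1, -0.16 and 0.42 for Cep250, -0.23 and 0.00 for Cep63, -0.05 and 0.01 for Cep120, and -0.06 and 0.03 for Cep68. Precision is limited by 2 libraries per genotype.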
